A study of Mus musculus with 12 samples.

Results

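The genes described here encode the auxiliary subunits of voltage-gated calcium channels: the beta subunit genes Cacnb1, Cacnb2, Cacnb3 and Cacnb4, and the alpha2delta subunit genes Cacna2d1, Cacna2d2 and Cacna2d3. They were chosen by name, as the rows whose Ensembl identifier maps to these mouse symbols. They lie on 6 chromosomes of GRCm38, at chr11:98001508-98023034 (Cacnb1, minus strand), chr2:14603088-14987908 (Cacnb2, plus), chr15:98630840-98644529 (Cacnb3, plus), chr2:52428320-52676831 (Cacnb4, minus), chr5:15934691-16374511 (Cacna2d1, plus), chr9:107399612-107529343 (Cacna2d2, plus) and chr14:28904943-29721864 (Cacna2d3, minus), in the GENCODE M21 annotation, and each is protein-coding. All 7 were found among the 38594 Ensembl genes of the deposited table, and all 7 passed the filter on low values. A calcium channel opens through its pore subunit. Beta subunits bind the pore subunit of high-voltage-activated channels from inside the cell, bring it to the membrane and tune its gating. Alpha2delta subunits are glycoproteins on the outer face of the membrane that raise the number of channels at the surface and at presynaptic endings; the pain drugs gabapentin and pregabalin bind the products of Cacna2d1 and Cacna2d2.

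The levels come from dorsal root ganglia (DRG), which hold the cell bodies of the body's sensory neurons, taken at lumbar levels L1 to L6 from male C57BL6J mice 6 to 12 weeks old. The mice carried no treatment or allele named in the labels, and the sample titles call them naive. Ganglia were collected at zeitgeber time (ZT, hours after lights on) 2, 8, 14 or 20, with 3 libraries at each time and 12 in all, and the series title names nociceptor clock genes, excitability and pain. The labels do not say whether each library is a separate animal, so p-values measure the spread between libraries, which may be technical. Library numbers follow the order of the times, so that time of day and any batch of collection or preparation cannot be told apart. In whole ganglia, fewer cells of a type and less RNA per cell cannot be told apart either.

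Levels are given as CPM, the deposited estimated count of a gene per 1000000 of its library's total after TMM scaling. How the deposited counts were made is not stated. They are read here as on a per-length scale. The reason is that in each library 1 frequent value was shared by 62 to 86 genes of different length. CPM of different genes are compared on that reading, and the order of levels, the family shares and the ratios to pore genes rest on it. In units of 1000000, totals per library were 89.6 to 124.7 on that scale, and the reads behind them were approximated as 47.9 to 67.1. All 10 pan-neuronal markers were present, the lowest being Isl1 at 99.7 CPM, and their sum lay between 16192 and 17364 CPM. Skeletal muscle lies next to the ganglia; its 12 markers were all present and varied widely between libraries of 1 time: their sum ran from 71.9 to 327.0 CPM at ZT2, 74.2 to 344.4 CPM at ZT8, 152.7 to 420.1 CPM at ZT14 and 24.3 to 830.5 CPM at ZT20.

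Promoter windows of the genes were searched for the letters of clock-controlled elements, because time of day is the comparison of the series. RefSeq gives 12 windows for the 7 genes on GRCm38.p6, each running from 250 bases before to 50 bases after an annotated start. On either strand, the E-box CACGTG, bound by CLOCK and BMAL1, was in 0 of these 12 windows and in 7.15% of all 32851 windows. The D-box TTATGTAA was in 0 of 12 (0.938% of all), and so was TAGGTCA, the core of the element bound by ROR and REV-ERB proteins (2.61% of all). The E-box variant CACGTT was in 1 of 12, a Cacnb1 window (4.68% of all). The GC box GGGCGG was in 8 of 12 windows, against 35.7% of all windows. By gene, all 7 had it in at least 1 window, against 38.2% of the 27025 genes with a window. The G and C content of the 12 windows had a median of 71.8%, against 52.7% over all windows, and 2 of the 12 lay below 52.7%: a Cacnb2 window at 44.0% and a Cacnb4 window at 49.7%. The Cacnb1 window is shown for its CACGTT, in capitals, which begins 154 bases before the annotated start. Both Cacnb3 windows are shown because Cacnb3 had the highest level of the 7 genes and their lowest unadjusted edgeR p (0.0037, ZT20 against ZT8). Their GC boxes (GGGCGG or its complement CCGCCC) are in capitals. All are written 5′ to 3′ on the strand of the gene, which is minus for Cacnb1 and plus for Cacnb3. A match of letters is a description and not a binding site.
Cacnb1 (chr11:98022578-98022877): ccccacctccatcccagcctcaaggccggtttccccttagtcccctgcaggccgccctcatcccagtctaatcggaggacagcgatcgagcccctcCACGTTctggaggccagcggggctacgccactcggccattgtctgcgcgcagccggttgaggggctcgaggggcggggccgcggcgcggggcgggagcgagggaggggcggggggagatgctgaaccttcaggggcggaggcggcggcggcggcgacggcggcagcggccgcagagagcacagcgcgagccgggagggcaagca
Cacnb3, upstream start (chr15:98632078-98632377): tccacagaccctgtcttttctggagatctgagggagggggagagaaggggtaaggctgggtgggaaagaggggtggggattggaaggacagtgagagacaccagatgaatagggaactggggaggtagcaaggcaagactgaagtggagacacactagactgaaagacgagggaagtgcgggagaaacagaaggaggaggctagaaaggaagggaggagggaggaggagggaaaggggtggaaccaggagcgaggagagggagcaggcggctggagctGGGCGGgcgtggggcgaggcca
Cacnb3, downstream start (chr15:98634517-98634816): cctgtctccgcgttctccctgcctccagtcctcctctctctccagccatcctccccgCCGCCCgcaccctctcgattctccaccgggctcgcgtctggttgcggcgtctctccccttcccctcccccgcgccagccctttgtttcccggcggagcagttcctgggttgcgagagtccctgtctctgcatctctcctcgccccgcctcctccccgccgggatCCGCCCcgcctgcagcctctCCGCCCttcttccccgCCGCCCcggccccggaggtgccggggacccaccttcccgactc

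Cacnb3 was the most abundant of the 7 genes, and Cacnb2 the least. Over the 12 libraries, per-length levels averaged 252 ± 29.5 CPM (SD) for Cacnb3, a beta gene whose product is common in neurons. Next came Cacna2d1, the alpha2delta gene known to rise in DRG after nerve injury, at 71.6 ± 3.86 CPM. Cacnb1, which also supplies the beta subunit of the skeletal muscle channel, stood at 68.2 ± 2.70 CPM. These neighbours overlapped: Cacna2d1 was above Cacnb1 in 9 of 12 libraries, with a ratio of means of 1.05.

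Cacna2d3, an alpha2delta gene implicated in heat pain in flies and mice, followed at 34.5 ± 1.37 CPM. Cacnb4, whose loss gives the ataxic lethargic mouse, stood at 28.3 ± 2.85 CPM. Cacna2d2, mutated in the ataxic ducky mouse, was at 24.7 ± 1.72 CPM. Cacnb4 and Cacna2d2 overlapped in range, with Cacnb4 the higher in 11 of 12 libraries. Cacnb2, the main beta gene of heart, was at 3.78 ± 0.34 CPM. In the other 4 neighbouring pairs of this order the ranges over 12 libraries did not overlap. The level of Cacnb2 is the least certain: 13 annotated genes overlap its locus, 8 of them on the opposite strand, and their summed values came to 183% of its own, most of it in the pseudogenes Gm13268 and Gm13316. The sources used here do not say whether reads were counted by strand. For Cacnb4 the overlapping genes, all 3 on the opposite strand, held 16.8% of its value, and for the other 5 genes 1.79% or less. On the per-length scale these percentages compare levels and are not shares of reads.

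**Figure D1:**
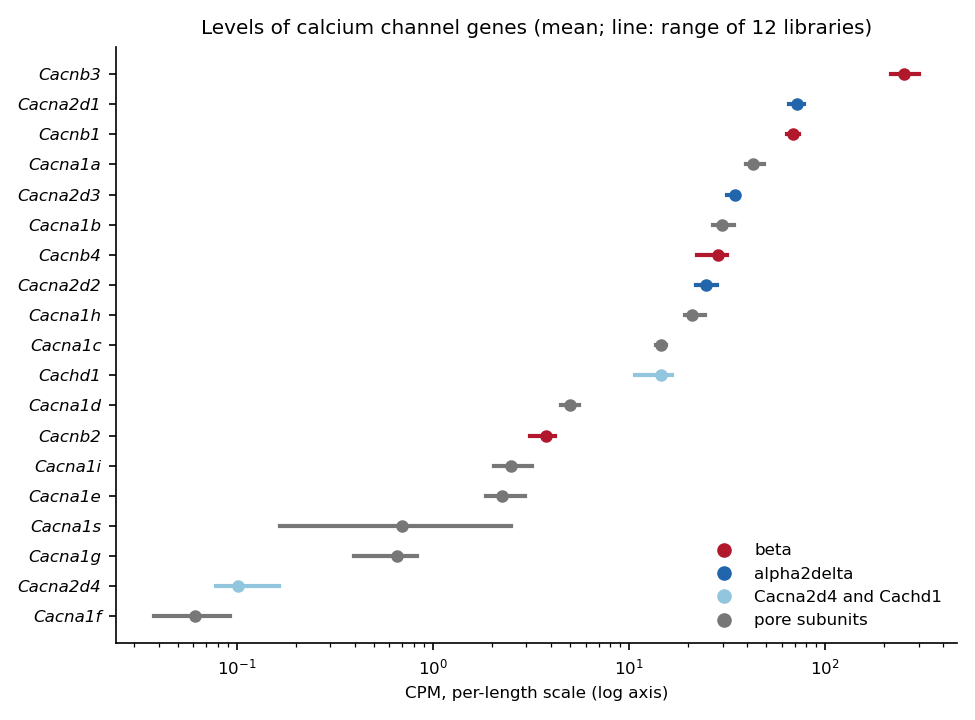
Per-length level (CPM, log axis) of the beta, alpha2delta and pore subunit genes and of the related Cacna2d4 and Cachd1; points are means and lines the range over 12 libraries. Cacnb3 lies at 252 CPM, to the right of every pore gene, and Cacnb2 at 3.78 CPM.

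Within its family, Cacnb3 made up 71.3% ± 2.65 of the summed per-length level of the beta genes (SD, n = 12), Cacnb1 19.5% ± 1.60, Cacnb4 8.11% ± 1.26 and Cacnb2 1.08% ± 0.15. The share of Cacnb3 stayed between 67.9% and 75.7% in single libraries. By time of day its mean was 71.7% (ZT2), 69.0% (ZT8), 70.6% (ZT14) and 74.2% (ZT20). The alpha2delta level was split more evenly: Cacna2d1 held 54.7% ± 1.27, Cacna2d3 26.4% ± 1.38 and Cacna2d2 18.9% ± 0.86. The fourth alpha2delta gene, Cacna2d4, known from the retina, was at 0.10 CPM, and Cachd1, an alpha2delta-like gene whose product acts on low-voltage-activated channels, at 14.5 CPM.

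Against the pore subunits the auxiliary genes were abundant. The 4 beta genes summed to 352 ± 28.3 CPM per length and the 3 alpha2delta genes to 131 ± 5.09 CPM, while the 7 high-voltage-activated pore genes summed to 95.2 ± 3.97 CPM (SD, n = 12). The 3 low-voltage-activated pore genes, which need no beta subunit, summed to between 22.2 and 28.1 CPM. The beta sum was 3.70 times the high-voltage pore sum (range 3.29 to 4.02) and the alpha2delta sum 1.38 times (1.23 to 1.48). Both were above the pore sum in 12 of 12 libraries, and so was Cacnb3 alone, at 2.64 times that sum. The pore gene of highest level was Cacna1a, which encodes the P/Q-type channel, at 42.9 CPM. Cacna1b, the N-type pore of pain-sensing endings, was at 29.7 CPM and Cacna1h, the main T-type pore of sensory neurons, at 20.9 CPM.

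No beta or alpha2delta gene passed a test for a difference with time of day. edgeR's quasi-likelihood F test was run on 25809 genes, with Benjamini-Hochberg adjustment over all of them and a threshold of 0.05. In the any-time test, for a difference among the 4 times, 0 of the 7 passed, against 0.0504% of all genes (13). In the test of a 24-h cosine 0 passed, against 0.0659% (17), and in the test of a 12-h alternation 0 passed, against 0% (0 genes; 1921 had an unadjusted p under 0.05, DESeq2 called 114 and limma 0). The background was as thin in the comparisons of 2 times: 0.0465% of genes passed for ZT14 against ZT2, 0.0232% for ZT20 against ZT8, 0.0194% for ZT8 against ZT2, 0.0426% for ZT20 against ZT14 and 0.00387% for ZT2 against ZT20. For ZT14 against ZT8 it was 0% in edgeR (1627 genes at an unadjusted p under 0.05), with 103 called by DESeq2 and 0 by limma. In each of these 6 comparisons 0 of the 7 genes passed, and with DESeq2 or limma 0 passed as well. At an unadjusted p under 0.05 in this edgeR fit, which had no covariates, only Cacnb3 stood out. It did so in the any-time test (6.19% of all genes did), the 24-h test (5.2%), ZT20 against ZT8 (5.28%) and ZT20 against ZT14 (6.28%), so 1 of 7 genes against a background near 1 in 20. These tests come from 1 fit of the same libraries and are not independent of each other.

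**Figure D2:**
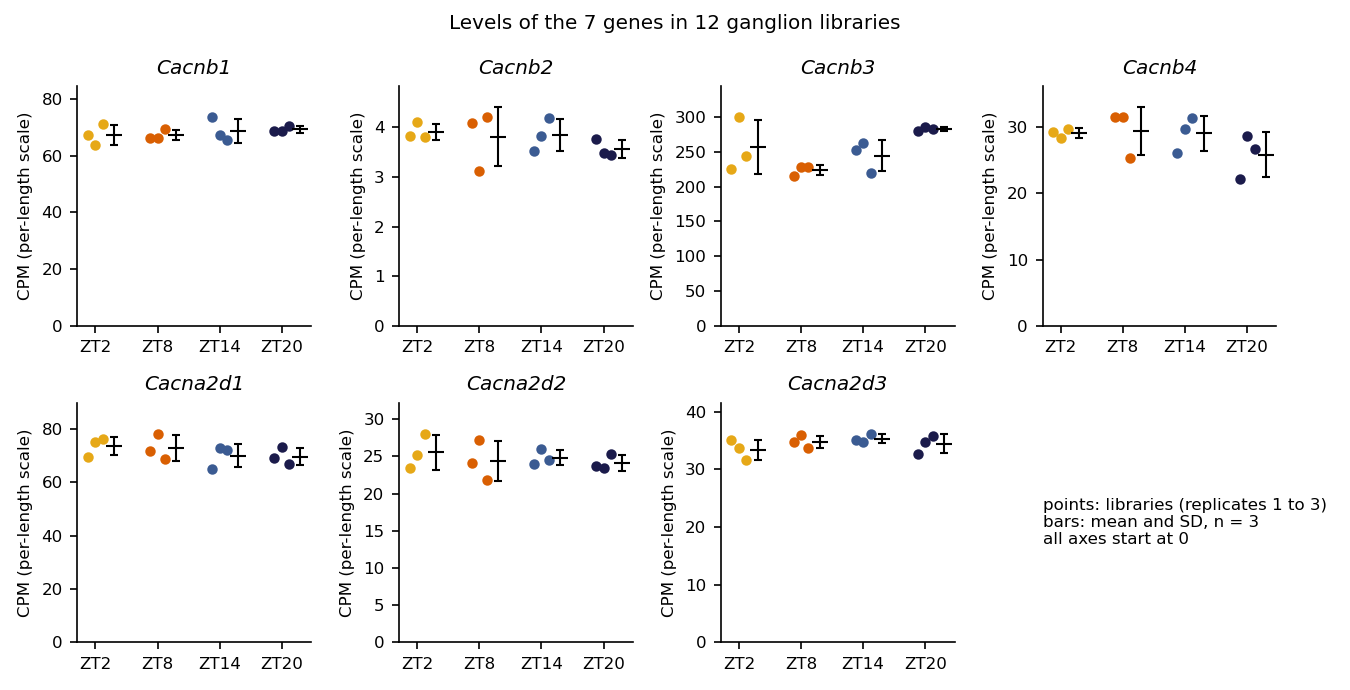
Per-length level (CPM, axes from 0) of each gene at ZT2, ZT8, ZT14 and ZT20; coloured points are libraries and black bars mean and SD (n = 3). The 3 ZT20 points of Cacnb3 sit together between 280 and 286 CPM, above all ZT8 and ZT14 points. Cacnb4 and Cacnb2 spread about as widely over the 12 libraries as Cacnb3 (highest over lowest 1.43, 1.34 and 1.39).

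Cacnb3 had 226, 299.6 and 244 CPM in the ZT2 libraries, 215, 228 and 228 CPM at ZT8, 253, 262 and 219 CPM at ZT14, and 280.4, 286 and 283 CPM at ZT20. The ZT20 libraries lay close together and above every ZT8 and ZT14 library, while the highest single library was replicate 2 of ZT2. Means were 283 ± 2.60 CPM at ZT20 and 224 ± 7.41 CPM at ZT8 (SD, n = 3 each), a log2 fold change of 0.34 ± 0.09 (SE; 95% interval 0.13 to 0.54) that did not pass in edgeR (adjusted p = 0.739). The groups did not overlap, which held for 9.85% of all genes in this comparison. For ZT20 against ZT14 the log2 fold change was 0.21 ± 0.09 (SE; edgeR adjusted p = 0.774), again without overlap, which held for 11.3% of all genes there. Sums of some cell type markers also stood apart at ZT20 from those of other times, and these differences were not tested. The 3 erythroid markers, all present, summed to 510.3 to 824.3 CPM at ZT20, against 1485 to 1574 CPM at ZT8, 2465 to 2720 CPM at ZT14 and 1144 to 2595 CPM at ZT2. The 5 endothelial markers, all present, summed to 65.1 to 73.0 CPM at ZT20, against 53.5 to 63.9 CPM at ZT8, 58.7 to 68.0 CPM at ZT14 and 59.4 to 65.8 CPM at ZT2. The erythroid sum at ZT20 lay below that of every other time, and the endothelial sum lay above that of ZT8 but overlapped ZT14 and ZT2. The spinal cord sum at ZT20 (4.6 to 5.3 CPM) lay below that of ZT2 (5.8 to 6.7 CPM) but overlapped ZT8 and ZT14. Of the 4 spinal cord markers 3 were present, and only 1 had a mean of 1 CPM or more. Sums of satellite glia, fibroblast, smooth muscle and pericyte, macrophage and adipocyte markers at ZT20 overlapped every other time. Of the 4 adipocyte markers 0 had a mean of 1 CPM or more. The 10 pan-neuronal markers summed to 16784 to 16914 CPM at ZT20, above ZT8 (16262 to 16687 CPM) and ZT2 (16311 to 16529 CPM). At ZT14 they spanned 16192 to 17364 CPM. The mean log2 CPM of these markers, in which each counts alike, did not set ZT20 apart. It was 9.49, 9.45 and 9.54 in the ZT20 libraries, 9.47, 9.46 and 9.49 at ZT8 and 9.49, 9.47 and 9.53 at ZT2. The 6 Schwann cell markers summed to 7249 to 8424 CPM at ZT20, above ZT14 (7082 to 7181 CPM) and overlapping ZT2 and ZT8. Over 12 libraries Cacnb3 had r = 0.109 with the mean log2 CPM of the pan-neuronal markers (permutation p = 0.732). The part of these cell types in the level of Cacnb3 was not tested further.

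The fitted 24-h cosine of Cacnb3 had an amplitude, the log2 distance from mean to peak, of 0.17 ± 0.05 (SE) and a peak at 20.8 ± 1.02 h (edgeR adjusted p = 0.768). The amplitudes of the 17 genes that passed this test ran from 0.185 to 1.11, with a median of 0.477. Over 24 alternative fits the log2 fold change of Cacnb3 for ZT20 against ZT8 stayed between 0.31 and 0.36, and the adjusted p between 0.108 (DESeq2) and 1. The ZT14 against ZT2 difference was -0.07 ± 0.09 (edgeR adjusted p = 1), and it was 0.05 without replicate 2 of ZT2.

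The other beta genes gave smaller values. Cacnb1 had 67.1, 63.7 and 71.0 CPM at ZT2, 66.2, 66.4 and 69.5 CPM at ZT8, 73.5, 67.2 and 65.7 CPM at ZT14, and 68.6, 68.5 and 70.5 CPM at ZT20. All 4 times overlapped, the coefficient of variation over 12 libraries was 3.95%, and the 24-h amplitude was 0.03 ± 0.03. For ZT20 against ZT8 its log2 fold change was 0.04 (95% interval -0.07 to 0.15), and for ZT14 against ZT2 0.03 (-0.08 to 0.15). On a linear scale the intervals span 0.945 to 1.11 fold.

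Cacnb4 had 29.2, 28.3 and 29.7 CPM at ZT2, 31.4, 31.4 and 25.2 CPM at ZT8, 26.0, 29.7 and 31.3 CPM at ZT14, and 22.1, 28.7 and 26.7 CPM at ZT20. Its lowest library was replicate 1 of ZT20, and the times overlapped. The log2 fold change was -0.19 ± 0.11 (SE) for ZT20 against ZT8 (edgeR adjusted p = 0.952) and 0.00 for ZT14 against ZT2, and the 24-h amplitude was 0.09 ± 0.05.

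Cacnb2 had 3.83, 4.10 and 3.80 CPM at ZT2, 4.10, 3.13 and 4.20 CPM at ZT8, 3.53, 3.84 and 4.18 CPM at ZT14, and 3.77, 3.48 and 3.44 CPM at ZT20, with both extremes at ZT8. Its ZT2 libraries (3.80 to 4.10 CPM) lay above its ZT20 libraries (3.44 to 3.77 CPM); for 14.7% of all genes the groups did not overlap in this comparison. The log2 fold change of 0.13 ± 0.12 (SE) for ZT2 against ZT20 did not pass in edgeR (adjusted p = 0.837). The 24-h amplitude was 0.05 ± 0.06.

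No alpha2delta gene differed between times beyond the spread of the libraries. Cacna2d1 had 69.7, 75.1 and 76.2 CPM at ZT2, 71.7, 78.2 and 68.8 CPM at ZT8, 65.1, 72.9 and 72.1 CPM at ZT14, and 69.0, 73.2 and 66.9 CPM at ZT20, with overlap between all times. Its log2 fold change was -0.07 (95% interval -0.21 to 0.06) for ZT14 against ZT2 and -0.07 (-0.20 to 0.07) for ZT20 against ZT8. On a linear scale these intervals, not adjusted for the number of genes, span 0.865 to 1.045 fold and 0.869 to 1.05 fold.

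Cacna2d2 ranged from 21.9 CPM in replicate 3 of ZT8 to 28.0 CPM in replicate 3 of ZT2, and no time stood apart. It averaged 25.6 ± 2.31 CPM at ZT2, 24.4 ± 2.65 CPM at ZT8, 24.8 ± 1.04 CPM at ZT14 and 24.1 ± 1.05 CPM at ZT20 (SD, n = 3 each). Its 95% intervals ran from -0.22 to 0.14 for ZT14 against ZT2 and from -0.20 to 0.17 for ZT20 against ZT8, on the log2 scale. Cacna2d3 was among the steadiest of the 7 genes, with a coefficient of variation of 3.96%. Its means were 33.4 ± 1.72 CPM at ZT2, 34.8 ± 1.09 CPM at ZT8, 35.3 ± 0.77 CPM at ZT14 and 34.4 ± 1.65 CPM at ZT20, and its log2 fold change was 0.08 ± 0.05 (SE) for ZT14 against ZT2 (edgeR adjusted p = 1). The 24-h amplitudes were 0.05 ± 0.03 for Cacna2d1, 0.02 ± 0.04 for Cacna2d2 and 0.04 ± 0.03 for Cacna2d3. The summed alpha2delta level was 133 ± 3.98 CPM at ZT2, 132 ± 8.51 CPM at ZT8, 130.2 ± 5.15 CPM at ZT14 and 128 ± 3.06 CPM at ZT20.

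**Figure D3:**
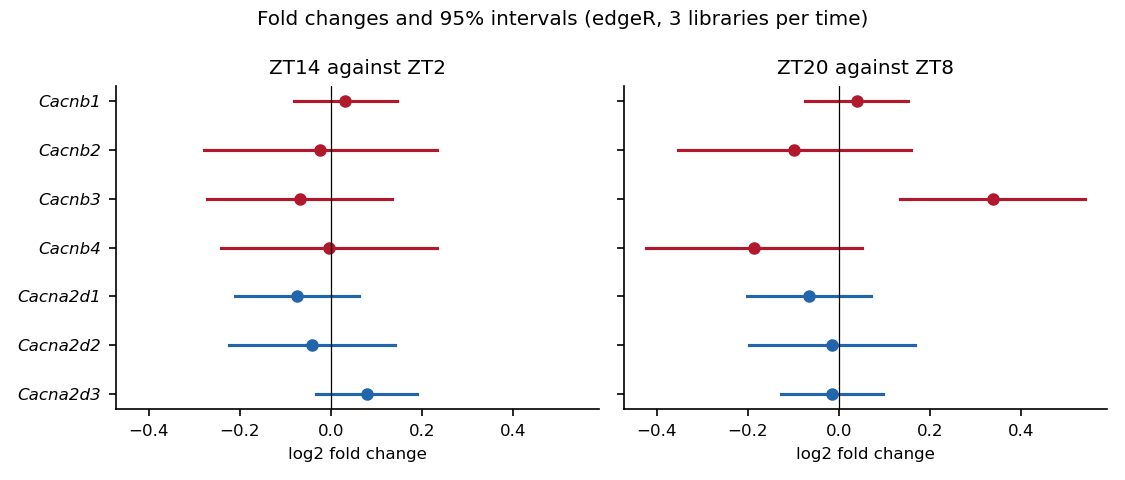
Log2 fold change (horizontal axis) of each gene for ZT14 against ZT2 and ZT20 against ZT8, with 95% intervals from the edgeR fit (3 libraries per time). For ZT20 against ZT8 the interval of Cacnb3, 0.13 to 0.54, lies above 0 before adjustment; the other 13 intervals include 0.

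The median 24-h amplitude of the 7 genes was 0.049, against 0.096 over all genes tested and 0.039 over the 6686 protein-coding genes at 20 CPM or more. An amplitude cannot fall below 0, so the spread between libraries alone gives a value above 0. The median SD of log2 CPM over the libraries was 0.099 for the 7 genes, 0.202 for all genes and 0.076 for those protein-coding genes.

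Because Cacnb1 and Cacna2d1 also serve the skeletal muscle channel, levels were set beside the muscle content of each library. Cacna1s, the pore of the skeletal muscle channel, followed the muscle score (the mean log2 CPM of the 12 markers, 0.02 in replicate 2 of ZT20 and 4.67 in replicate 1 of ZT20) over 12 libraries with Pearson r = 0.928 and rho = 0.923 (two-sided permutation tests, p = 8e-05 and 0.00011; r = 0.91 without the 2 libraries farthest from the median score). For Cacnb1, its partner in muscle, r was 0.081 and rho 0.14 (permutation p = 0.803 and 0.667; r = 0.126 without those 2 libraries). Cacna1s averaged 0.70 CPM, against 68.2 CPM for Cacnb1, both per length. Cacna2d1, the alpha2delta gene of muscle, had r = -0.524 and rho = -0.636 (p = 0.0791 and 0.03; r = -0.555 without those 2). Cacnb4 had r = -0.638 and rho = -0.713 (p = 0.0247 and 0.0118; r = -0.675 without those 2), and r = -0.907 for deviations from the means of each time. Of the 14 relations of the 7 genes with the muscle score and a pan-neuronal score, 0 passed Benjamini-Hochberg adjustment; the lowest adjusted value was 0.346 for r and 0.165 for rho, both for Cacnb4 and muscle.

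A second measure of the libraries, added after the data were seen, moved with Cacnb4. For each library the deviation of log2 level from the gene's mean was regressed on log2 transcript length over 6680 protein-coding genes, none of them a member; the slope is called the length trend here. It was lowest in replicate 1 of ZT20 (-0.07 log2 units per doubling of length), replicate 1 of ZT14 (-0.06), replicate 3 of ZT8 (-0.04) and replicate 2 of ZT2 (-0.02), the 4 libraries richest in muscle transcripts, and between 0.0034 and 0.04 in the other 8. Its correlation with the muscle score was r = -0.712 and rho = -0.706 (permutation p = 0.0092 and 0.0128; r = -0.825 without the 2 libraries farthest from the median score). Cacnb4, whose longest transcript of 8225 bases exceeds that of 96.6% of protein-coding genes at 20 CPM or more, followed the length trend with r = 0.91 and rho = 0.902 (permutation p = 6e-05 and 0.00015, adjusted over 21 relations 0.00126 and 0.00315). The relation was r = 0.865 without the 2 libraries farthest from the median length trend, and r = 0.927 within times. An r at least as high was found in 2.81% of protein-coding genes at 20 CPM or more. Cacna2d1, at 7436 bases longer than 94.9% of those genes, gave r = 0.595 (0.36 without those 2 libraries), and Cacna2d2, at 5807 bases longer than 88.2%, gave r = 0.551 (0.594). The other 4 genes gave r between -0.41 (Cacnb3) and 0.313 (Cacna2d3), and of these 6 genes 0 passed adjustment. Outside the members, the related Cachd1, with a longest transcript of 5765 bases, gave r = 0.868 (0.867 without those 2 libraries). With the length trend in the edgeR fit, the amplitude of Cacnb4 was 0.05 ± 0.03, against 0.09 ± 0.05 without it, and that of Cacnb3 0.16 ± 0.05, against 0.17 ± 0.05. The part of muscle content or of the length trend in the level of Cacnb4 was not tested further.

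**Figure D4:**
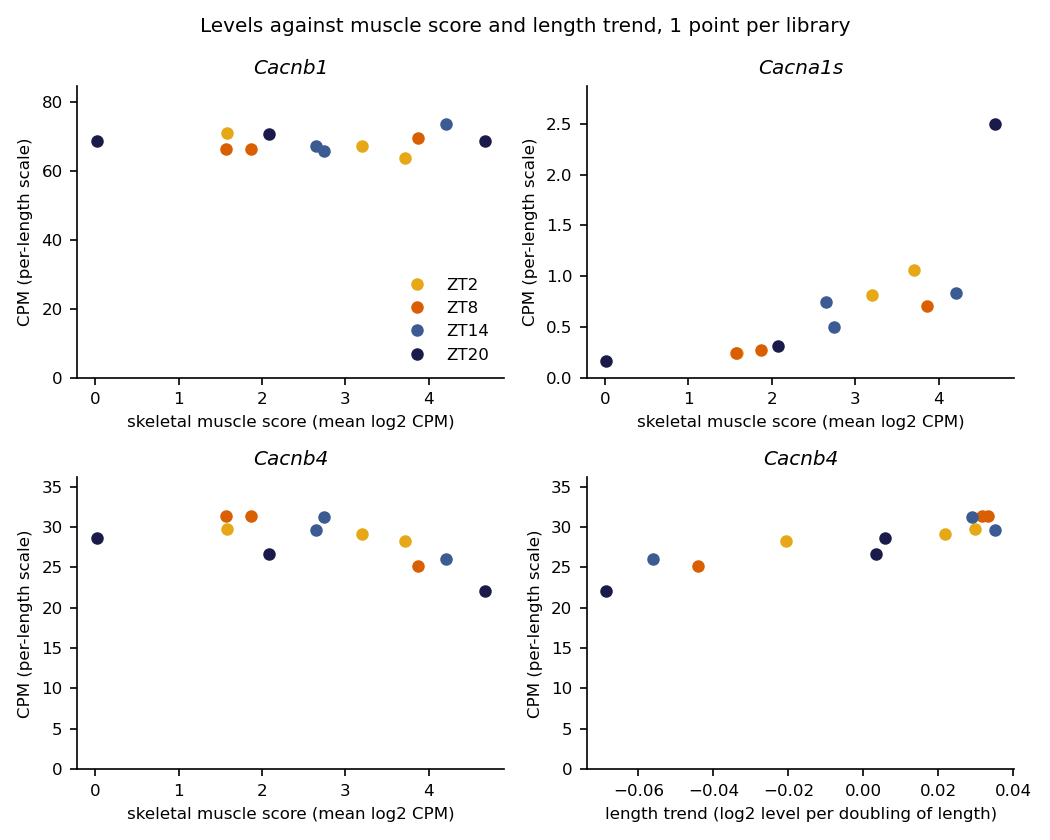
Per-length level (CPM, from 0) of Cacnb1, Cacna1s and Cacnb4 against the skeletal muscle score, and of Cacnb4 against the length trend (log2 level per doubling of transcript length); 1 point per library, coloured by time. Cacnb1 shows r = 0.081 with the muscle score, Cacna1s climbs with it (r = 0.928), and Cacnb4 climbs with the length trend (r = 0.91).

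Genes linked to these channels, and a list of injury-induced genes, showed no call either. In all 9 edgeR tests 0 genes passed among 9 of the 10 pore genes (Cacna1f was under the filter), Cacna2d4 and Cachd1, 8 gamma subunit genes, 4 RGK GTPase genes whose products bind beta subunits, 3 STAC adaptor genes, 9 genes for partners of alpha2delta, 13 genes of the transmitter release machinery and 10 injury-induced genes. The lowest adjusted p among them was 0.295, for Thbs3 in the 12-h alternation test; thrombospondins bind alpha2delta outside the cell. Thbs3 averaged 8.19 CPM at ZT2, 6.52 CPM at ZT8, 7.48 CPM at ZT14 and 6.74 CPM at ZT20. By level per length, the leading genes of these lists were Cacng7 among the gamma genes (157 CPM), Rem2 among the RGK GTPases (26.1 CPM), Stac2 among the STAC adaptors (82.6 CPM), Prnp, the prion protein, among the partners (483 CPM), Snap25 in the release machinery (1881 CPM) and Gap43 among the injury-induced genes (292 CPM).

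The protein-coding genes whose log2 CPM was most like that of each member were sought among 11106 genes (11107 for Cacnb2) at a mean of 5 CPM or more, over the same 12 libraries, as a description. The closest was Cand1 for Cacnb4 (r = 0.988), with Sh3bgrl2 next (0.978). Cacna2d1 was most like Ppfia2 (0.936) and Ids (0.905). Cacnb1 was most like Zmiz2 (0.927) and Ap2a1 (0.917), and Cacna2d3 like Lipa (0.912) and Egflam (0.869). For Cacnb3 the closest were Tmem161a (0.91) and Ckap4 (0.857), for Cacnb2 Commd8 (0.908) and Ubl4a (0.895), and for Cacna2d2 Cenpc1 (0.892) and Arhgap20 (0.858). Each value is the highest of many over 12 points that share muscle content and length trend, and none of them is a test. Among the members themselves the highest r was 0.623, between Cacnb4 and Cacna2d1, and the lowest -0.583, between Cacnb1 and Cacna2d1.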

How the data were processed

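Polyadenylated RNA of the 12 libraries was sequenced as paired reads of 150 bases, per the labels' protocols. HISAT2 2.2.1, StringTie 2.1.5, R and genome build GRCm38.p6 are named in the submitters' processing notes without their roles. Not given in the sources used here are the annotation release and how the table was made. The table the authors deposited holds estimated counts that are not whole numbers, in 38942 rows. The most frequent value above 10 in a library, 16.4 to 17.24, was shared by genes of widely different transcript length, so the values are read as on a per-length scale, on which totals are not reads and counting error is not modelled exactly. The 348 assembled loci without an Ensembl identifier (0.203% to 0.231% of a library) were left out. Symbols and lengths came from GENCODE M21, which matched 38462 of 38594 identifiers.

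Counts were rounded and tested with edgeR 4.0.16 in R 4.3.3 (filterByExpr, TMM, robust quasi-likelihood fit, 1 model of the 4 times over all 12 libraries); 25809 genes were tested and 12785 fell below the filter. Adjusted p-values are Benjamini-Hochberg values over all genes tested. The code was tested on simulated data. Alternatives used DESeq2 1.42.0, limma 3.58.1, other scalings and covariates, approximate reads, and fewer libraries. Correlations used log2 CPM (prior count 2) and 100000 permutations (scipy 1.17.1). Figures were drawn with matplotlib 3.10.9. The members, gene lists and tests were chosen with earlier results of these data known. Named genes are the 7 members, the highest-level gene of each pathway list and any gene of those lists past a test (0 were), and the 2 genes most like each member; Isl1, Cacna1b, Cacna1f, Cacna1h, Cacna1s, Cacna2d4, Cachd1, Thbs3 and the 2 pseudogenes were named after their values were seen. Promoter sequences are from RefSeq.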

Additional observations from a re-analysis of the deposited data

How the results depend on the processing

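In each of the 9 tests 0 of the 7 genes passed under every alternative run: DESeq2, limma-trend, DESeq2 size factors, library sizes without mitochondrial transcripts, no filter, approximate reads, replicate block, muscle or pan-neuronal covariate, the length trend (added after the data were seen), each of the 12 libraries left out, without the 4 libraries richest in muscle transcripts, and, for comparisons of 2 times, only the 6 libraries compared. Replicate numbers did not pair the libraries (18 same-numbered pairs, r from -0.065 to 0.078; 3 of 12 libraries correlated best with their own number), and with the replicate block 0 members passed, against 4 of all genes in the 24-h test and 7 in the any-time test. Counts over all genes were less stable: 4 to 292 in the any-time test, 4 to 162 in the 24-h test, 0 to 114 in the 12-h test, 0 to 106 for ZT14 against ZT2, 0 to 68 for ZT20 against ZT8, 0 to 81 for ZT8 against ZT2, 0 to 103 for ZT14 against ZT8, 0 to 111 for ZT20 against ZT14 and 0 to 80 for ZT2 against ZT20, the highest always from DESeq2.

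For ZT14 against ZT2 and ZT20 against ZT8, signs that changed were all of uncalled log2 fold changes near 0, and the cause was not tested. Signs changed in other comparisons too, also without a call, for every member except Cacnb3, and examples follow. Over the alternative fits, ZT8 against ZT2 ran from -0.060 to 0.043 for Cacnb1 and -0.0678 to 0.0385 for Cacna2d1. In the same fits ZT14 against ZT8 ran from -0.0031 to 0.0454 for Cacna2d3, -0.109 to 0.15 for Cacnb2 and -0.119 to 0.055 for Cacnb4. For Cacna2d2 it ran from -0.050 to 0.110, and ZT8 against ZT2 ran from -0.112 to 0.086 for Cacnb2. With libraries left out in turn, the ZT14 against ZT2 values ran from -0.020 to 0.073 for Cacnb1, -0.093 to 0.034 for Cacnb2, -0.157 to 0.054 for Cacnb3, -0.067 to 0.066 for Cacnb4 and -0.102 to 0.031 for Cacna2d2, and the ZT20 against ZT8 values from -0.092 to 0.068 for Cacna2d2 and -0.050 to 0.022 for Cacna2d3. Without the 4 libraries richest in muscle transcripts, ZT14 against ZT2 gave -0.057 for Cacnb1, 0.071 for Cacnb2, 0.034 for Cacnb3 and 0.049 for Cacnb4, and ZT20 against ZT8 gave 0.0017 for Cacna2d3. Cacnb4 gave 0.026 for ZT14 against ZT2 with the muscle covariate and 0.018 with the length trend. With the length trend, ZT20 against ZT8 gave 0.025 for Cacna2d2 and 0.0004 for Cacna2d3. Amplitudes of Cacnb4 ran from 0.04 to 0.14 and those of Cacnb2 from 0.02 to 0.11. With the muscle covariate Cacnb4 had a log2 fold change of -0.26 for ZT20 against ZT14, the lowest adjusted p of any setting for this gene (edgeR adjusted p = 0.146). In that fit its unadjusted edgeR p was 0.00332 in the any-time test and 0.0109 in the 24-h test. There 2 of the 7 genes had an unadjusted p under 0.05 in the any-time test, against 3034 of all 25809 genes. Shares within the families moved by less than 1 SD with any library left out; other scalings cannot move them, since they apply to a whole library. With 3 libraries a time, the 95% interval of the ZT20 against ZT8 fold spanned 0.916 to 1.07 for Cacna2d3 and 0.783 to 1.12 for Cacnb2. These intervals are not adjusted for the number of genes: that of Cacnb3, 1.10 to 1.46, lay above 1 without a call.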
